A study of Mus musculus with 12 samples.

Results

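CIS, the SOCS proteins and the PIM kinases form the short feedback arm of cytokine signalling, and their transcripts were compared here between airway eosinophils with and without surface TREM-1, an activating receptor of myeloid cells. The genes were chosen by name, with earlier results of these data known. They are Cish, Socs1, Socs2 and Socs3, the kinase genes Pim1, Pim2 and Pim3, and the transcription factor genes Stat5a, Stat5b and Stat6. All 10 were found among the 39666 genes of the deposited count table, and all 10 passed the filter on low counts, as did 18302 genes in all.

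The eosinophils came from pooled lung lavage of wild-type C57BL/6 mice aged 8 to 12 weeks with allergic airway inflammation, and every library shares that background. The mice received 20 µg ovalbumin with 4 mg alum on days 0 and 7, inhaled nebulized 1% ovalbumin for 40 minutes on each of days 16 to 18, and were harvested on day 19. Each of 6 lavages was gated on eosinophils with high side scatter that carried CD45, CD11b and Siglec-F and low to middle CD11c and Ly6G. Sorting these cells by TREM-1 gave 6 TREM-1- and 6 TREM-1+ libraries, paired by lavage. No unchallenged mice are among the groups, so the values describe inflamed airways. Lavages were pooled and nothing in the labels says that the pools came from separate sets of mice, so every p-value reflects only how these 6 pools vary.

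Interleukin-5, interleukin-3 and GM-CSF, the cytokines that keep eosinophils alive, activate the kinase JAK2, which phosphorylates STAT5. STAT5 then switches on Cish, Socs genes and Pim1. The CIS and SOCS proteins block receptors or JAK kinases and so end the signal, while the PIM kinases need no activating partner and promote survival and protein synthesis. STAT6 is the factor activated by interleukin-4 and interleukin-13, the type 2 cytokines of allergic airways, and Socs1 and Socs3 also respond to interferons and to cytokines that act through gp130 and STAT3.

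STAT5 and related factors bind the letters TTCNNNGAA, and STAT6 prefers the longer spacing TTCNNNNGAA. Each of these reads the same on both strands. Promoter windows of 300 bases, from 250 before to 50 after the annotated start, were found in RefSeq for 9 of the 10 genes (12 windows, assembly GRCm38.p6, which is not the authors' build GRCm39). Only the windows of Cish and Socs3 held TTCNNNGAA, and 0 of the 12 held TTCNNNNGAA. Of all 32851 promoter windows, 8.3% held the first and 6.95% the second. The 2 stretches that held a match are printed here because Cish and Socs3 are textbook STAT target genes. The Socs1 stretch held GAAANNGAAA, letters found in sites of interferon regulatory factors, which occur in either orientation in 3.44% of all windows. That motif was added after the windows had been read, and overlaps no match of the other motifs. Capitals mark the matches.
Cish: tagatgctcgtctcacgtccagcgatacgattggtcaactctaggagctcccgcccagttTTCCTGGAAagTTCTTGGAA
Socs3: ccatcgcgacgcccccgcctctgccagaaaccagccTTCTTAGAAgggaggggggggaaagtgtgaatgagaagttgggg
Socs1: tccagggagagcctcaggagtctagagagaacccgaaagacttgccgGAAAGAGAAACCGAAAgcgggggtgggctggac
The Cish stretch lies at chr9:107296599-107296678 on the plus strand and runs from base -60 to base 20 of the start, with its pair of matches at bases 1 to 9 and 12 to 20. The Socs3 stretch is chr11:117969477-117969556 on the minus strand, with the match beginning at base -154. The Socs1 stretch is chr16:10785587-10785666 on the minus strand, with 2 matches that overlap by 4 bases between bases -83 and -68. A match describes letters in these windows and is not evidence of binding.

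The 6 TREM-1- libraries held 16513387 to 21234053 counts in total. TREM-1+ totals lay between 8626701 (lavage 4) and 19274912. Levels are CPM (counts relative to a common library total, after scaling with TMM factors that balance libraries on the bulk of genes). Trem1 rose from a mean of 30.7 to 93.1 CPM and in 6 of 6 lavages; as the sorted antigen it checks the labels. The libraries of lavages 1 and 2 resembled each other most, with a root mean square difference of 0.22 to 0.23 on the log2 scale within a fraction, against 0.32 to 0.64 for the 28 other pairs of lavages. The main results are therefore also given for lavages 1 and 2 alone and lavages 3 to 6 alone. The fit of lavages 1 and 2 alone has a single residual degree of freedom. Its p-values therefore rest on a spread borrowed across genes, not on replication. All 8 eosinophil marker genes passed the filter, with a summed level of 4350 to 6530 CPM without TREM-1 and 4310 to 6440 CPM with it. Of these 8, Ccr3 (-0.27), Il1rl1 (-0.29), Siglecf (-0.14) and Il5ra (-0.15) were called lower and Prg2 (0.34) and Alox15 (0.19) higher on the log2 scale, so that the falls of Ccr3 and Il1rl1 are close in size to those of the feedback genes described next. Thus 75% of the 8 were called, against 9.82% of all genes tested. With library totals alone 2 of the 8, Ccr3 and Il1rl1, were lower and 2 higher, where 12.3% of all genes were called. The relation of these marker changes to the feedback genes was not tested. Fewer transcripts per cell and fewer cells that carry the transcript cannot be told apart in such sorted pools.

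Socs1, Socs3 and Pim1 were each lower in TREM-1+ eosinophils, by 20.5%, 19.8% and 19.9%, than in their TREM-1- partners. Cish and Socs2, the other feedback inhibitors, Pim2, Pim3 and the 3 STAT genes did not pass the test. Of the 10 genes 3 were called lower and 0 higher (edgeR quasi-likelihood test, Benjamini-Hochberg adjusted p below 0.05), and 5 were lower and 0 higher at an unadjusted p below 0.05. The share of all genes at that unadjusted threshold was not computed, so such counts, here and for the lists below, have no background. DESeq2 and limma-voom likewise called 3 lower and 0 higher. Over all genes tested 9.82% were called, 6.72% lower and 3.1% higher, which is 1229 lower against 568 higher genes. With library totals in place of TMM factors that split became 376 lower against 1880 higher and the median of all genes rose by 0.13 on the log2 scale, yet Socs1 (-0.21, adjusted p = 0.0024), Socs3 (-0.19, adjusted p = 0.0415) and Pim1 (-0.19, adjusted p = 0.00413) were still the 3 called, all lower. The log2 fold change was below 0 in 9 of the 10 genes, against 49.1% of all genes, but with library totals alone in only 5, because Cish, Socs2, Stat5b and Stat6 moved above 0. Relative to the median gene 9 of 10 were lower under both scalings. The median of the 10 genes was -0.12 with TMM factors, where that of all genes was 0.00, and 0.01 with library totals alone, where that of all genes was 0.13. In 0 of the 10 genes did the 6 TREM-1- and 6 TREM-1+ libraries separate without overlap, which happened in 0.951% of all genes. Socs1, Socs3 and Pim1 were also the 3 genes of the 10 that moved the same way in 6 of 6 lavages, all lower, against 13.4% of all genes that moved one way and 8.31% that were lower in 6 of 6.

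**Figure D1:**
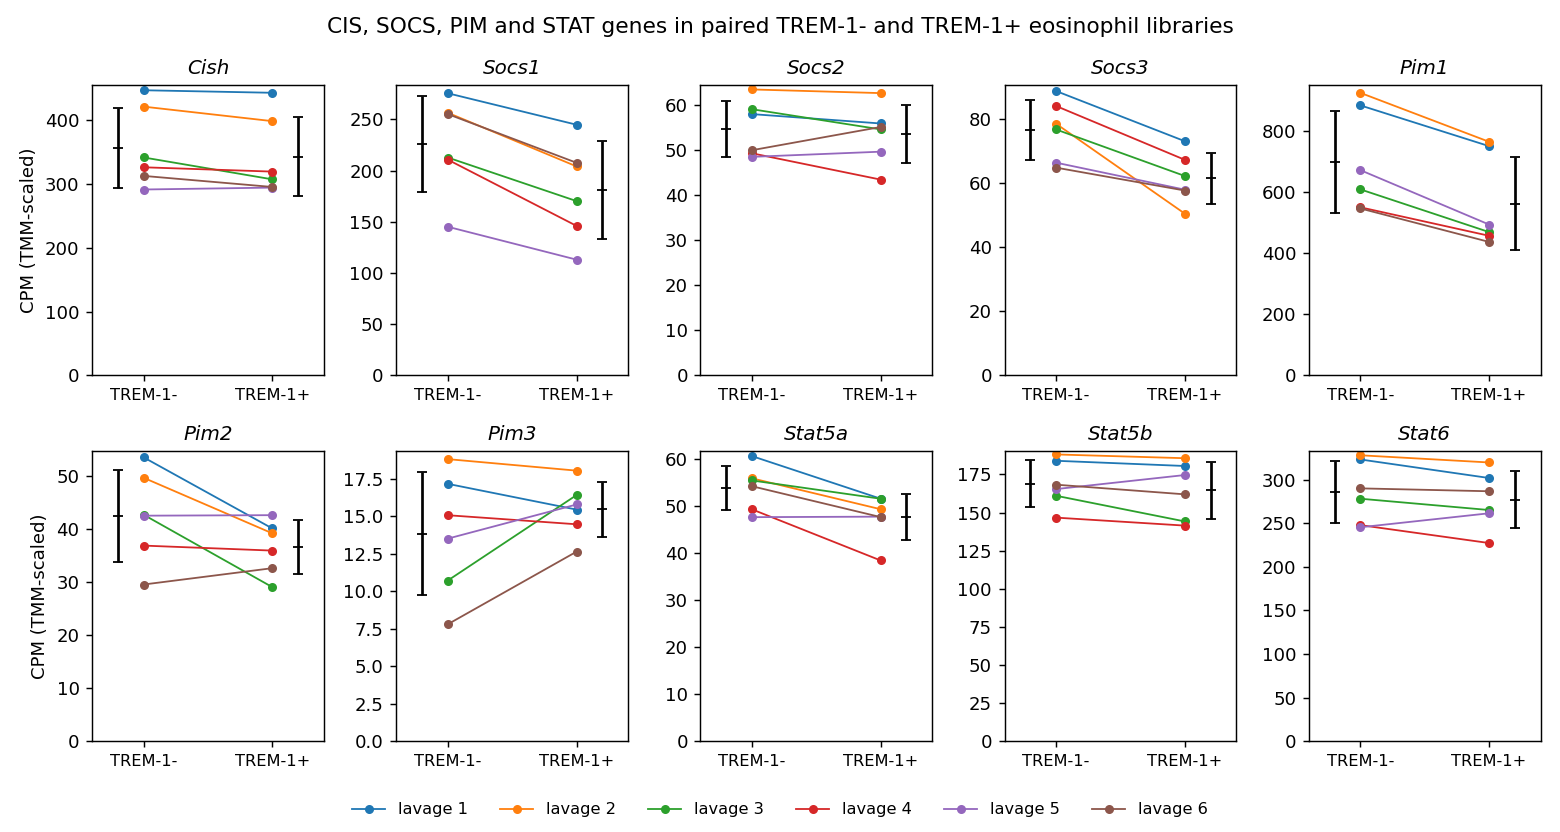
CPM (y axis, TMM-scaled, from 0) of each of the 10 genes in the TREM-1- and TREM-1+ library of each lavage (points of one colour joined by a line), with the mean and SD of the 6 libraries in black beside them. The lines of Socs1, Socs3 and Pim1 slope down in 6 of 6 lavages, although the libraries of the 2 fractions overlap in each gene.

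**Figure D2:**
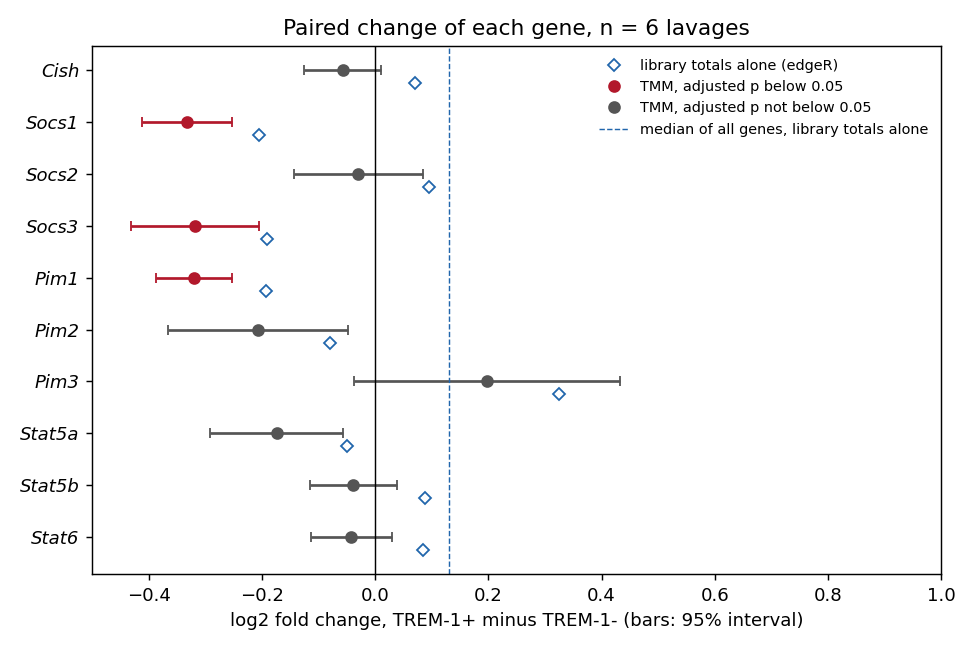
Log2 fold change (x axis, TREM-1+ minus TREM-1-) of each gene with its 95% interval from edgeR (filled points, red where the adjusted p was below 0.05), and the value with library totals alone (open diamonds). Socs1, Socs3 and Pim1 lie below 0 under both scalings, while Cish, Socs2, Stat5b and Stat6 change sign with the scaling and the dashed line marks the median of all genes, 0.13, under library totals.

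Among the inhibitors, Socs1 encodes a protein that binds the catalytic domain of JAK kinases and blocks it. From lavage 1 to lavage 6 it stood at 276, 257, 213, 211, 145 and 255 CPM in TREM-1- libraries, and at 245, 204, 170.3, 146, 113 and 208 CPM in their TREM-1+ partners. Lavage 5 was lowest in both fractions, and the TREM-1+ value was the lower one in 6 of 6 lavages while the fractions overlapped. This was a log2 fold change of -0.33 ± 0.04 (SE, adjusted p = 1.87e-07 by edgeR). It was -0.23 in lavages 1 and 2 alone (adjusted p = 5.84e-05) and -0.38 in lavages 3 to 6 alone (adjusted p = 1.28e-06).

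Socs3 encodes the inhibitor that binds gp130 and related receptors and restrains STAT3. TREM-1- libraries held 88.8, 78.6, 76.8, 84.1, 66.4 and 64.9 CPM from lavage 1 to lavage 6, and TREM-1+ libraries 73.1, 50.5, 62.3, 67.3, 58.0 and 57.7 CPM. Each TREM-1+ library was below its partner, most of all in lavage 2. In edgeR the change was -0.32 ± 0.06 on the log2 scale (SE, adjusted p = 9.65e-05). Without lavage 2 it was -0.25 (adjusted p = 0.00149). In lavages 1 and 2 alone it was -0.43 (adjusted p = 2.38e-08), and in lavages 3 to 6 alone -0.25 (adjusted p = 0.0135).

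Cish encodes CIS, which competes with STAT5 for phosphorylated receptor sites and is among the genes most directly driven by STAT5. Its TREM-1- libraries held 447, 421, 342, 326, 291 and 313 CPM and its TREM-1+ libraries 443, 399, 307, 319, 294 and 295 CPM from lavage 1 to lavage 6. The 2 fractions ran close together in each lavage, with the TREM-1+ value lower in 5 of 6 and the largest gap in lavage 3. By edgeR the change was -0.06 ± 0.03 on the log2 scale (SE, adjusted p = 0.368), with a 95% interval from -0.13 to 0.01, and with library totals alone it was 0.07 (adjusted p = 0.334). The counts behind it were high, from 3112 to 9034 per library.

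Socs2, best known as the inhibitor of growth hormone signalling through STAT5, averaged 54.8 ± 6.28 CPM in TREM-1- against 53.7 ± 6.48 CPM in TREM-1+ eosinophils (SD, n = 6). Single libraries ran from 48.6 to 63.6 CPM and from 43.5 to 62.8 CPM, and the TREM-1+ library was lower in 4 lavages and higher in 2. That is a log2 fold change of -0.03 ± 0.06 (SE, adjusted p = 0.854 by edgeR, 95% interval -0.14 to 0.08). It was 0.10 with library totals alone and 0.02 without lavages 3 and 4, so that no direction can be read from it.

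Pim1, the kinase gene of this set with the highest level, held 882, 923, 608, 549, 671 and 545 CPM in TREM-1- libraries from lavage 1 to lavage 6. Its TREM-1+ libraries held 749, 763, 468, 456, 493 and 436 CPM. Lavages 1 and 2 were highest in both fractions, and within every lavage the TREM-1+ library was the lower one. Its log2 fold change of -0.32 ± 0.03 (SE, adjusted p = 1.48e-08 by edgeR) had the smallest p of the 10 genes. Its 6 paired differences were the most even of the 3 lowered genes, from -0.44 in lavage 5 to -0.24 in lavage 1. The fold was -0.24 in lavages 1 and 2 alone (adjusted p = 5.94e-07) and -0.36 in lavages 3 to 6 alone (adjusted p = 1.88e-07).

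Pim2 and Pim3, the other kinase genes of the family, were lower in level and more variable. Pim2 had 53.5, 49.6, 42.7, 36.9, 42.5 and 29.5 CPM in TREM-1- and 40.1, 39.2, 29.0, 35.9, 42.6 and 32.6 CPM in TREM-1+ libraries. It was clearly lower in lavages 1 to 3 and close to or above its partner in lavages 4 to 6. Pim2 missed the threshold at -0.21 ± 0.08 on the log2 scale (SE, adjusted p = 0.104 by edgeR). It passed the test without lavage 6 (-0.27, adjusted p = 0.0335), in lavages 1 and 2 alone (-0.36, adjusted p = 0.00031) and with no filter on low counts (-0.20, adjusted p = 0.0448), but in lavages 3 to 6 alone it was -0.12 (adjusted p = 0.657). The fit with no filter had 141200 degrees of freedom for Pim2, against 26.7 in the main fit. Both exceed what 12 libraries can give, so both fits borrowed spread across genes. With no filter the spread was almost wholly borrowed.

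Pim3 was the least abundant of the 10 genes, with 129 to 362 counts per library. Its levels were 17.2, 18.8, 10.7, 15.1, 13.5 and 7.81 CPM in TREM-1- and 15.5, 18.0, 16.4, 14.5, 15.8 and 12.6 CPM in TREM-1+ libraries. The TREM-1+ library was higher in lavages 3, 5 and 6 and lower in the others. On the log2 scale its change was 0.20 ± 0.12 (SE, adjusted p = 0.370 by edgeR, 95% interval -0.04 to 0.43), and it was -0.09 in lavages 1 and 2 alone and 0.36 in lavages 3 to 6 alone (adjusted p = 0.205). It was 0.11 without lavage 3 and 0.11 without lavage 6, and 0.33 with library totals alone (adjusted p = 0.0631).

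The STAT genes, which encode the factors upstream of this feedback, differed little between the fractions. Stat5a had 60.7, 56.0, 55.5, 49.4, 47.7 and 54.3 CPM in TREM-1- and 51.6, 49.4, 51.6, 38.5, 47.8 and 47.7 CPM in TREM-1+ libraries. It was lower in the TREM-1+ library of 5 lavages and level in lavage 5. Its fold change was -0.17 ± 0.06 on the log2 scale (SE), and the edgeR adjusted p of 0.0525 just missed the threshold. Without lavage 3 the adjusted p was 0.0486, without lavage 5 it was 0.0309, and with a minimum count of 50 it was 0.0446, while in the 4 other fits that left out 1 lavage it did not pass (0.119 to 0.197).

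Stat5b, the close copy of Stat5a, averaged 169 ± 15.3 CPM in TREM-1- against 165 ± 18.7 CPM in TREM-1+ eosinophils (SD, n = 6), with libraries from 147 to 188 CPM and from 141 to 186 CPM. The change was -0.04 ± 0.04 on the log2 scale (SE, adjusted p = 0.667 by edgeR, 95% interval -0.12 to 0.04). Stat6, the interleukin-4 and interleukin-13 factor, averaged 285 ± 35.5 CPM in TREM-1- against 277 ± 32.8 CPM in TREM-1+ eosinophils (SD, n = 6), with libraries from 245 to 328 CPM and from 227 to 319.6 CPM. Its paired value was -0.04 ± 0.03 (SE, adjusted p = 0.591 by edgeR, 95% interval -0.11 to 0.03). Both were lower in 5 of 6 lavages, the exception being lavage 5, and with library totals alone they were at 0.09 and 0.09, above 0. The division of reads shared by the copies Stat5a and Stat5b was not given in the sources used here. Their separate values are uncertain to that extent.

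Differences between genes of one family do not depend on how libraries are scaled, since both genes come from the same library. The paired change of Cish lay above that of Socs1 in 6 of 6 lavages, by 0.28 ± 0.13 on the log2 scale (SD, n = 6), and above that of Socs3 by 0.26 ± 0.16. Socs2 likewise lay above Socs3 in 6 of 6 lavages, by 0.29 ± 0.17, and the Socs1 change was lower than that of Socs2 by a mean of -0.30 ± 0.12. Socs1 and Socs3 did not separate from each other (-0.02 ± 0.20, lower in 4 lavages and higher in 2), nor did Cish and Socs2 (-0.03 ± 0.12). The change of Pim1 lay below that of Pim3 in 6 of 6 lavages (-0.53 ± 0.42), with differences from -1.01 to -0.08, and that of Stat5a below that of Stat6 in 6 of 6 (-0.13 ± 0.07). These 6 differences that held in every lavage had p = 0.0312 by exact permutation of the signs (two-sided), which is the smallest p among 64 sign patterns. After Benjamini-Hochberg adjustment over the 12 pairs compared their p was 0.0625, so that 0 of 12 passed. With 6 lavages at least 8 of the 12 pairs would have to reach the smallest p for any to pass.

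**Figure D3:**
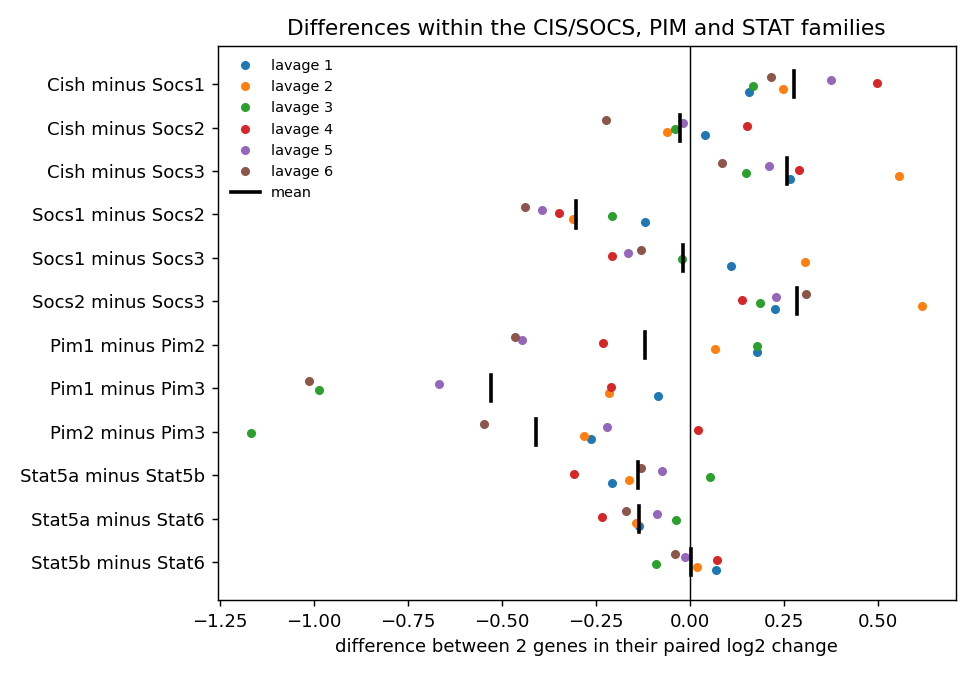
Difference between 2 genes of a family in their paired log2 change (x axis), for each lavage (coloured points) and as the mean (black line), for the 12 pairs within the CIS and SOCS, PIM and STAT families. Points of 6 pairs, among them Cish minus Socs1 (mean 0.28) and Socs1 minus Socs2 (mean -0.30), lie on one side of 0 in 6 of 6 lavages.

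Levels of the 10 genes were compared per length, as CPM per kilobase of the longest protein-coding transcript in GENCODE vM21, with the 12 libraries together. Pim1 was highest (233), followed by Cish (123), Stat6 (74.5), Socs1 (70.0), Stat5b (32), Socs3 (27.1), Socs2 (24.4), Pim2 (19.3), Stat5a (13.1) and Pim3 (6.04). Pim1 stood above Cish in 12 of 12 libraries and Cish above Stat6 in 12 of 12. Stat6 and Socs1 did not differ beyond their spread, Stat6 being the higher in 7 of 12 libraries. Stat5b exceeded Socs3 in 11 of 12 libraries, Socs3 exceeded Socs2 in 9 of 12 and Socs2 exceeded Pim2 in 11 of 12, and these neighbours' ranges overlap. Socs1, Pim2 and Stat5a each stood above the next gene in 12 of 12, although the ranges of Pim2 and Stat5a overlap as well. In TREM-1- libraries Socs1 (77.7 ± 16.3, SD, n = 6) had a higher mean than Stat6 (75.6 ± 9.41), and in TREM-1+ libraries a lower one (62.3 ± 16.3 against 73.4 ± 8.69).

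In the most abundant of these genes levels varied more between lavages than the paired differences did. Between lavages the mean log2 CPM of a lavage had an SD of 0.37 for Socs1, 0.35 for Pim1 and 0.25 for Cish, while the SD of their paired differences was 0.12, 0.08 and 0.06. Pim1 averaged 829 CPM in lavages 1 and 2 and 528 CPM in lavages 3 to 6, a ratio of 1.57, and Cish 427 and 311 CPM, a ratio of 1.37. In Socs3 that ratio was 1.08. Pim3, at the other end, had an SD of 0.30 between lavages and 0.37 between paired differences. Without the lavage as a block 0 of the 10 genes were called, with log2 fold changes of -0.32 for Socs1 (adjusted p = 0.813), -0.32 for Socs3 (0.343) and -0.31 for Pim1 (0.812).

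Among the 10967 genes of at least 5 CPM on average, those whose profile over the 12 libraries was most like each lowered gene were found by the root mean square difference of mean-centred log2 CPM. Nearest to Pim1 was Gas7 (0.07), followed by Smpd1 (0.10), which encodes acid sphingomyelinase, and Lilra6 (0.11), against a median of 0.39 over all these genes. Nearest to Socs1 were Psmb8 (0.14), an immunoproteasome subunit gene, Prr5l (0.17) and the proteasome activator gene Psme1 (0.17), against a median of 0.42. Nearest to Socs3 were Cass4 (0.12), Lonrf1 (0.13) and Ndel1 (0.13), against a median of 0.32. Each of these 9 genes was also called lower in TREM-1+ eosinophils, which the measure partly builds in, since it covers both fractions.

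The rest of the pathway was read from lists of receptor chains and JAK kinases, other STAT genes, other inhibitors and target genes. Of 26 receptor chain and JAK genes tested, 5 were lower and 6 higher (42.3% called, against 9.82% of all genes), with a median log2 fold change of 0.01. The JAK2-coupled receptor chain gene Csf2rb, shared by interleukin-5, interleukin-3 and GM-CSF, averaged 1739 CPM in TREM-1- against 1652 CPM in TREM-1+ eosinophils (-0.07 ± 0.03, SE, edgeR adjusted p = 0.120). Jak2 itself was called lower, at 422 against 389 CPM (-0.11 ± 0.03, SE, edgeR adjusted p = 0.0260), and was lower in 5 of 6 lavages. This call was fragile. Jak2 was not called with library totals alone, without lavage 1, 2, 3, 4 or 6, or in lavages 3 to 6 alone. Il10ra fell by 0.35 and Il4ra, the interleukin-4 receptor chain that activates STAT6, fell by 0.23 on the log2 scale. Jak1 (-0.14 ± 0.03) and Il5ra (-0.15 ± 0.04) also fell, but with library totals alone Jak1 (-0.01), Il5ra (-0.03) and Il4ra (-0.11) were not called, and Il5ra was also not called without lavage 1 (adjusted p = 0.0598), without lavages 3 and 4 (0.079) or in lavages 3 to 6 alone (0.138). With library totals 7 of the list were higher and 1 lower, where all genes gave 1880 higher and 376 lower. In lavages 1 and 2 alone 1 of the list was higher and 6 lower, where all genes gave 425 higher and 1142 lower.

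The higher receptor genes were led by Il13ra1 (0.73 ± 0.08, SE), a chain of the interleukin-13 receptor, Il6st (1.34 ± 0.20), which encodes gp130, Csf3r (0.92 ± 0.14), the G-CSF receptor gene of neutrophils, and Il7r (0.95 ± 0.16). Their levels were low. In TREM-1- against TREM-1+ libraries Il13ra1 averaged 19.6 against 32.6 CPM and Csf3r 5.86 against 11.2 CPM. Il6st was at 3.04 ± 2.79 against 7.08 ± 4.85 CPM and Il7r at 6.12 ± 5.51 against 11.1 ± 9.35 CPM (SD, n = 6). In lavages 1 and 2 alone Il6st (1.49, adjusted p = 0.137), Csf3r (0.47, adjusted p = 0.123) and Il7r (2.01, adjusted p = 0.122) were not called. Il7r is also on the list of T and innate lymphoid cell markers. Of these, 7 of 9 tested genes were higher and 0 lower in TREM-1+ libraries (77.8% called, against 9.82% of all genes). Their summed level, 8.77 to 64 CPM without TREM-1 and 10.3 to 124 CPM with it, was higher in 6 of 6 lavages. Of 7 neutrophil markers tested (100% called, against 9.82% of all genes) 6 were higher, among them S100a8 (2.35), S100a9 (1.45), Ltf (0.93), Ngp (0.89) and Ly6g (0.82), and Retnlg was lower (-0.38). Their summed level, 1540 to 2290 CPM without TREM-1 and 1320 to 2210 CPM with it, was higher in 1 of 6 lavages, but Retnlg (1603 against 1244 CPM) makes up most of it. Without Retnlg the sum was 289 to 521 CPM against 411 to 655 CPM and higher in 6 of 6 lavages. Cxcr2 (330 against 382 CPM, 0.22 on the log2 scale) makes up most of that smaller sum. Elane was at 0 and Mpo and Camp were below 1 CPM. Of 5 macrophage markers tested 1 was higher and 2 were lower (60% called, against 9.82% of all genes), with Marco, Fabp4, C1qa, C1qb and C1qc below 1 CPM. The sum of this list was 971 to 1540 against 830 to 1150 CPM. Adgre1 (983 against 875 CPM) and Ear1 (146 against 52.2 CPM), the genes called lower, make up most of it. Adgre1 was near the level of the eosinophil marker Siglecf (875 against 796 CPM). Which cells carried Adgre1 and Ear1 was not tested, so the sum does not measure macrophages. Fn1 was called higher (25.9 ± 27.5 against 69.3 ± 65.3 CPM, SD, n = 6). Mrc1 (5.75 against 12.2 CPM) was not called (edgeR adjusted p = 0.0829). Both Fn1 and Mrc1 were higher in 6 of 6 lavages, so the sum gives no common direction for the list. The part of other cells in the values of the feedback genes was not tested.

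Of 3 more STAT genes, Stat2 (-0.36 ± 0.05, SE) and Stat3 (-0.12 ± 0.03) were lower (66.7% called, against 9.82% of all genes). Stat4, at 8.10 against 7.70 CPM, was not called (edgeR adjusted p = 0.716). Stat2, a factor of type I interferon signalling, fell from 148 to 113 CPM. The Stat3 call did not hold without lavage 1 (adjusted p = 0.0578), lavage 2 (0.0777) or lavage 4 (0.085), without lavages 3 and 4 (0.0875) or in lavages 3 to 6 alone (0.2), nor with library totals alone, where the value was 0.01 (adjusted p = 0.954). Among 16 other inhibitors 2 were lower and 2 higher (25% called, against 9.82% of all genes). Their median was 0.02 (0.15 with library totals alone, where that of all genes was 0.13). Usp18, which encodes the brake on the type I interferon receptor, fell by 0.60, and Ptpn1, a phosphatase gene that acts on JAK2, fell by 0.23 on the log2 scale, although Ptpn1 was not called with library totals alone (-0.11, adjusted p = 0.110). The ubiquitin ligase genes Cbl (0.13 ± 0.03) and Cblb (0.21 ± 0.07) rose, but both calls were fragile. Cbl was not called without lavage 3 (adjusted p = 0.0651), without lavages 3 and 4 (0.228) or in lavages 1 and 2 alone (0.159). Cblb was called in only 1 of the 6 fits that left out a lavage, that without lavage 3, and not by DESeq2 (0.0533) or in lavages 3 to 6 alone (0.408). The SOCS box binds elongins and Cul5 to form a ubiquitin ligase, and of 6 genes of that complex 0 were called by edgeR, DESeq2 or limma-voom, with 1 lower and 0 higher at an unadjusted p below 0.05.

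Genes that STAT factors are known to induce were read as 1 list per factor. Of 14 genes of the STAT5 target list 7 were lower and 1 higher (57.1% called and 50% lower, against 9.82% and 6.72% of all genes). Their median log2 fold change was -0.17 (-0.04 with library totals alone, where that of all genes was 0.13). Id1 fell by 0.49, the cytokine gene Osm fell by 0.79, the D-type cyclin gene Ccnd3 fell by 0.32 and the survival gene Mcl1 fell by 0.24 on the log2 scale, with edgeR adjusted p-values between 2.09e-10 for Id1 and 2.01e-07 for Mcl1. Bcl6 rose (0.48 ± 0.10, SE), a repressor gene that STAT5 is known to switch off in lymphocytes, so that it stands apart from the rest of the list. With library totals alone 4 of the list were lower and 2 higher, where 12.3% of all genes were called and 2.05% were lower. Mcl1 was then at -0.12 (adjusted p = 0.053).

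Of 16 genes of the STAT6 target list 6 were higher and 2 lower (50% called, against 9.82% of all genes), with a median of 0.17. Retnla (1.18 ± 0.06, SE), Arg1 (1.50 ± 0.17), Pparg (0.95 ± 0.16) and Alox15 (0.19 ± 0.03) rose, all genes of type 2 activation, and Il4ra, counted above among the receptors, and Tgm2 (-1.64 ± 0.11) fell. Levels of Arg1 and Pparg were low. Arg1 averaged 6.70 ± 5.38 CPM in TREM-1- against 20.9 ± 19.4 CPM in TREM-1+ libraries (SD, n = 6) and was higher in 5 of 6 lavages. Pparg averaged 4.16 against 7.89 CPM. Retnla (200 against 447 CPM) and Alox15 (2239 against 2542 CPM) stood at higher levels. Which cells carried these genes was not tested. In lavages 1 and 2 alone Arg1 was not called (0.86, adjusted p = 0.106). Of 6 genes tested from the STAT3 target list 3 were lower and 0 higher (50% called, against 9.82% of all genes). At an unadjusted p below 0.05, 4 were lower and 0 higher. Zfp36 fell by 0.47, Bcl3 by 0.42 and Junb by 0.32 on the log2 scale.

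Among 11 genes of PIM kinase substrates 3 were lower and 0 higher at an unadjusted p below 0.05, with a median of -0.03. After adjustment 2 were lower and 0 higher (18.2% called, against 9.82% of all genes). They were Foxo3 (-0.24 ± 0.04, SE), which encodes a transcription factor restrained by phosphorylation, and the cell cycle inhibitor gene Cdkn1a (-0.19 ± 0.06), which is on the STAT5 list as well, and 0 of the list were called with library totals alone. Cdkn1a was not called without lavage 2, 3, 4 or 6 (adjusted p 0.073 to 0.133), by limma-voom (0.0548), in lavages 3 to 6 alone (0.0717), without lavages 3 and 4 (0.256) or in lavages 1 and 2 alone, where its value was -0.09 (0.562).

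**Figure D4:**
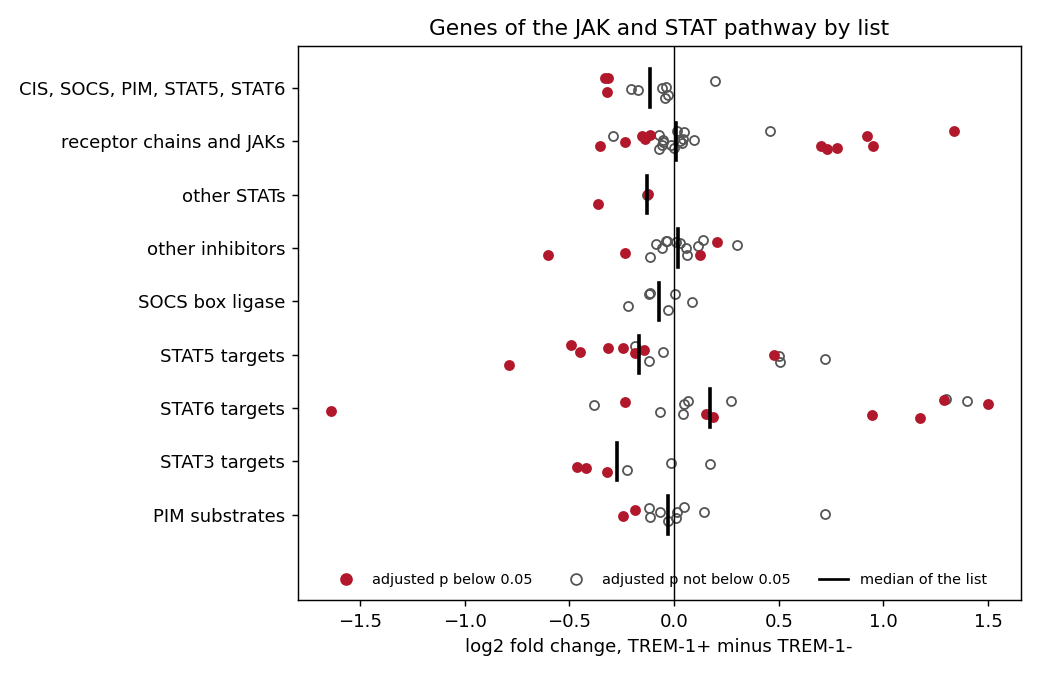
Log2 fold change (x axis, TREM-1+ minus TREM-1-, TMM scaling) of each tested gene of the 10 feedback and STAT genes and of 8 pathway lists, filled red where the edgeR adjusted p was below 0.05, with the median of each list as a black line. The medians of the STAT3 (-0.27) and STAT5 (-0.17) target lists lie below 0 and that of the STAT6 list (0.17) above. With library totals alone these 3 medians are -0.14, -0.04 and 0.30, and that of the 10 feedback and STAT genes (-0.12) turns to 0.01. The median of all genes is then 0.13, against 0.00 with TMM scaling.

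Some of the feedback genes overlap other genes on the opposite strand in GENCODE vM21. Pim1 shares 1173 bases with Gm26885 (8.28 CPM, log2 fold change -0.14, edgeR adjusted p = 0.671), Stat5a shares 72 bases with Stat3, and Stat6 shares 40 bases with Nab2 (39.2 CPM, 0.07, adjusted p = 0.662). Gm17040 and Gm17041, which overlap Cish, were not analysed here. Libraries were stranded, but use of strand in the quantification was not given in the sources used here. For Socs1, Socs2, Socs3, Pim2, Pim3 and Stat5b no overlapping gene was found.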

How the data were processed

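Total RNA of the sorted cells was sequenced after ribosomal RNA removal, with strand kept, as 100 bp paired reads, per the labels' protocols. The authors deposited estimated counts per gene as whole numbers (rounding changed 0 values) and a table of log2 CPM values, which was used only as a check: recomputing the deposited log2 values from the counts agreed within 5e-09. Per the submitters' processing notes the tools were edgeR 3.42.4, R 4.3.0 and kallisto 0.45.0, and the build was GRCm39. The annotation was not given in the sources used here.

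All 18302 genes that passed filterByExpr (minimum count 10, minimum total 15) entered edgeR 4.0.16 (R 4.3.3, robust quasi-likelihood F test after TMM scaling, lavage as a block, TREM-1+ minus TREM-1-, Benjamini-Hochberg adjusted p below 0.05 over all genes). The standard error was derived from the F statistic, and intervals are 95% intervals. For paired differences log2 CPM had a prior count of 1. Alternatives were run with limma 3.58.1 and DESeq2 1.42.0. The procedure was tested on simulated data. The series' design text states that both fractions of a pair were sorted from 1 lavage, and deviations from the group means correlated within lavages 1 to 6 at 0.49, 0.50, 0.13, 0.37, 0.25 and 0.24.

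The genes and lists were chosen with earlier results of these data known. The named genes are the 10 themselves, up to 4 called genes per direction of each other list by smallest p, every gene of a list of 4 or fewer, Trem1, and the 3 nearest profiles of each called gene. Csf2rb, Jak2, the genes named of the marker lists and the sum without Retnlg were chosen after their values were seen, and other marker lists are given as counts and sums. B cell markers (0 of 2 called), mast cell and basophil markers (1 of 3 higher), monocyte and dendritic cell markers (2 higher and 1 lower of 7) and epithelial markers (0 of 2) were also read. Over all genes 9.82% were called, 6.72% lower and 3.1% higher. No set test was run. A planned list and a gene of another list are not reported here.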

Additional observations from a re-analysis of the deposited data

Results flagged for a closer look

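In 30 groups of 6 values (each gene's log2 CPM in each fraction and its paired differences) a library was looked for whose gap to its nearest neighbour exceeded 0.625 of the group's range, which chance gives in about 1 of 20 groups. There were 2 such values. The paired log2 difference of Socs3 in lavage 2 was -0.637, with the nearest other lavage at -0.32. Stat5a in the TREM-1+ library of lavage 4 was at 5.269 log2 CPM (38.5 CPM), with the nearest other TREM-1+ library at 5.58, and that library has the lowest total count, 8626701.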

How the results depend on the processing

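Socs1, Socs3 and Pim1 were called lower under each setting tried except the fit without the lavage block, where 0 of the 10 genes were called. Leaving out 1 lavage in turn gave 3 to 4 called genes. With no lavage block the counts called fell to 1 in the receptor and JAK list, 1 in the STAT5 target list and 1 in the STAT6 target list, and to 0 in the lists of other STATs, other inhibitors, STAT3 targets and PIM substrates. With library totals alone the PIM substrates had 0 called genes in place of 2 and the other STATs 1 in place of 2. The other STATs also had 1 in lavages 3 to 6 alone, 1 without lavages 3 and 4, and 1 to 2 when each lavage was left out. The PIM substrate count was 1 in lavages 3 to 6 alone, 1 without lavages 3 and 4, 3 with no filter on low counts or a minimum count of 50, and 1 to 2 when each lavage was left out, and the receptor and JAK list had 7 called genes in lavages 1 and 2 alone. That fit has a single residual degree of freedom, so that its spread is borrowed across genes. Over all genes 1797 were called, and 83 without the block. The direction changed with library totals alone in Cish (0.0703), Socs2 (0.0957), Stat3 (0.0051), Stat5b (0.088) and Stat6 (0.0852), in lavages 1 and 2 alone in Pim3 (-0.0862), in lavages 3 to 6 alone in Stat4 (0.0395) and without lavages 3 and 4 in Socs2 (0.0241). Except where fewer samples or genes were fitted, the cause was not tested. The sign-flip test of differences within families can pass only if 8 of 12 pairs reach its smallest p, so the 0 pairs passed with a prior count of 0.25 or 5 say nothing about stability. With 5 or 4 lavages it cannot go below 0.0625 or 0.125, so only mean differences were recomputed there. Precision was lowest in Pim3, whose counts were smallest.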
